A study of Homo sapiens with 8 samples.

Results

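The Frizzled receptor family comprises the 10 human genes FZD1 to FZD10, and its members here were all m6A peaks assigned to any of these genes in either of the 2 deposited peak lists. That gave 16 of the 13219 peaks of DF2 siRNA cells and 19 of the 15730 peaks of control cells, in 9 of the 10 genes, out of 10506 gene names with a peak in either list. The cells were U2OS, a human osteosarcoma line, either treated with siRNA against DF2 or used as controls. DF2 is YTHDF2, a cytoplasmic protein that binds m6A and directs the bound mRNA to decay. Cytoplasmic RNA was fragmented to about 100 nt and immunoprecipitated with an m6A antibody, which leaves m6A-bearing fragments enriched over the input. The 8 libraries comprised 2 immunoprecipitates and 2 inputs of DF2 siRNA cells (#1 and #2), and 2 immunoprecipitates and 2 inputs of control cells (1 and 2). The labels do not say whether #1 and #2 are different siRNAs or replicates, nor whether numbered libraries came from separate cultures.

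Frizzled proteins are membrane-spanning receptors of the Wnt growth factors, which they bind through an extracellular cysteine-rich domain. In the canonical branch, a Frizzled and its co-receptor LRP5 or LRP6 recruit Dishevelled and Axin, the complex that destroys beta-catenin is blocked, and beta-catenin activates transcription with TCF and LEF factors. In other branches the receptors act in planar cell polarity and cell movement, and Wnt signalling is a known regulator of bone-forming cells. By sequence the family falls into the groups FZD1, FZD2 and FZD7, then FZD5 and FZD8, then FZD4, FZD9 and FZD10, and lastly FZD3 and FZD6. Most Frizzled genes hold their coding sequence in a single exon, while FZD3 and FZD6 are split over several.

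Each list belongs to both immunoprecipitates of its condition, so a value has no replicate error, differences between conditions have no replicate check, and none is given with a p-value. The fold enrichment of a peak is the authors' ratio, whose denominator the sources used here do not give. The score is a whole number without a stated meaning. Neither separates the amount of an mRNA from its methylation, and in RNA of bulk cells, fewer cells with a transcript and less transcript per cell cannot be told apart. The values serve to describe and rank peaks within their own list. Library depth is unknown. RNA levels per library were not analysed here, so the cell line and the knockdown were not checked from them. Shares carry 95% exact binomial (Clopper-Pearson) intervals, which cover counting error only and treat peaks of the same mRNA as independent.

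Nearly the whole family carried m6A peaks in both conditions. FZD1 to FZD9 each had a peak in both lists, FZD10 had none in either, and no member was found in 1 list only. A peak in either list was found for 39.6% of RefSeq protein-coding symbols, a share that also depends on which genes the cells express. Among all 10506 gene names with a peak in either list, 75.2% were in both, 5.76% in DF2 siRNA only and 19% in control only. The matching count for the family is 9 of 9 in both, and 9 genes are too few to set it apart from 75.2%. Several peaks per gene were common, with 2 or more in 6 of 9 genes in DF2 siRNA cells (66.7%, interval 29.9 to 92.5%) and 7 of 9 in control cells (77.8%, 40.0 to 97.2%). Over all genes with a peak in the list, these shares were 37.6% in DF2 siRNA and 39.2% in control. The Frizzled numbers depend on narrow gaps between peaks. With peaks within 200 nt merged, FZD1, FZD2 and FZD8 had 1 peak each in control, and FZD2 had 1 in DF2 siRNA. The shares over all genes were not computed with merging. The median fold enrichment of the Frizzled peaks was 21.7 in the DF2 siRNA list, against 17.7 for all its peaks, and 33.2 in the control list, against 20.8 for all its peaks. The median score was 70 against 74 for all peaks in DF2 siRNA, and 218 against 143 in control. By fold enrichment, 10 of 16 Frizzled peaks were in the upper 50% of the DF2 siRNA list (62.5%, 35.4 to 84.8%). In control these were 11 of 19 (57.9%, 33.5 to 79.7%), and both intervals contain 50%. Frizzled peaks spanned fold enrichments from 9.37 to 82.4 in DF2 siRNA and from 6.27 to 184 in control, so strong and weak peaks both occurred in the family.

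**Figure D1:**
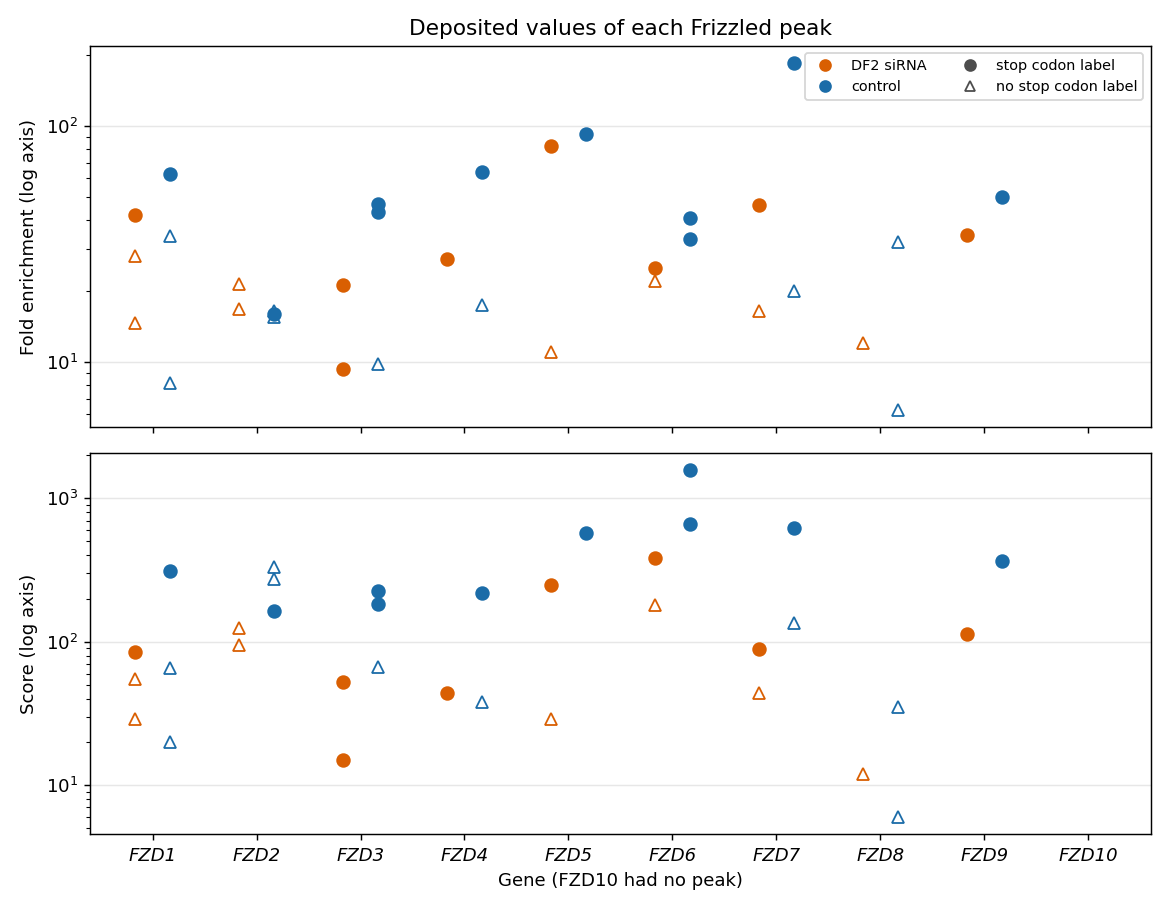
Fold enrichment (top) and score (bottom) of every Frizzled peak, both on log axes, with DF2 siRNA peaks to the left of control peaks for each gene; filled circles are peaks with a stop codon label and open triangles are peaks without. FZD7 holds the highest fold enrichment of the control list's Frizzled peaks (184) and FZD5 that of the DF2 siRNA list (82.4), while FZD6 has the highest score in both lists.

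Most Frizzled genes had a strongest peak with a stop codon label, but 9 genes are too few to set this share apart from that of all genes. In both lists 7 of the 9 genes had their peak of highest fold enrichment labelled with a stop codon (77.8%, 40.0 to 97.2%). In DF2 siRNA this counts FZD3, whose best peak lies at its 5′ end and carries 5′ UTR, coding and stop codon labels. The same held for 52.2% of all genes with a DF2 siRNA peak and for 51.0% of all genes with a control peak, and both shares lie within that interval. By peak, the stop codon label was given to 8 of 16 Frizzled peaks in DF2 siRNA (50%, 24.7 to 75.3%) and to 10 of 19 in control (52.6%, 28.9 to 75.6%). The shares over all peaks were 43.7% in DF2 siRNA and 42.7% in control, and lie within those intervals. The Frizzled counts include the 5′ peak of FZD3 in both lists and the upstream FZD6 peak in control, each besides a 3′ stop codon peak of the same gene. The coding label was given to 16 of 16 Frizzled peaks in DF2 siRNA (interval 79.4 to 100%), against 66.4% of all DF2 siRNA peaks. In control it was given to 16 of 19 (84.2%, 60.4 to 96.6%), against 61.7% of all control peaks. No Frizzled peak was labelled non-coding RNA (interval up to 20.6% in DF2 siRNA and 17.6% in control), and the shares over all peaks, 11.8% in DF2 siRNA and 15.5% in control, lie within these intervals. A peak can carry several labels, and a wide peak takes in more of them.

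Most Frizzled sequence under a peak was the same in both conditions. Of the 16 DF2 siRNA peaks, 15 had 1 or more bases in common with a control peak (93.8%, 69.8 to 99.8%) and 1 did not. Over all DF2 siRNA peaks, 12.5% had no control counterpart. Of the 19 control peaks, 15 were overlapped by a DF2 siRNA peak (78.9%, 54.4 to 93.9%) and 4 were not, while 28.1% of all control peaks were not. Counted in bases, the family had 13738 nt under DF2 siRNA peaks and 16033 nt under control peaks, with 12138 nt in common. The common part was 88.4% of the DF2 siRNA bases and 75.7% of the control bases, against 87.9% and 69.8% over all genes. The family thus lay near the whole lists in this measure.

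**Figure D2:**
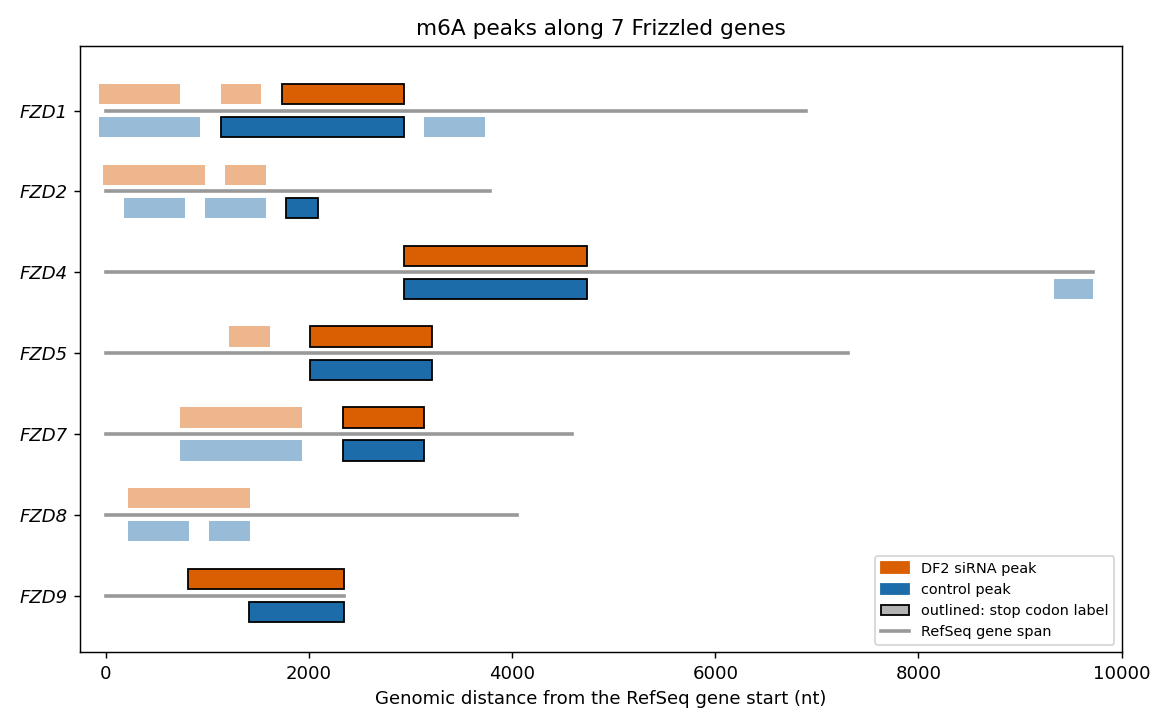
Position of the peaks along 7 Frizzled genes, in genomic nt from the RefSeq gene start, with DF2 siRNA peaks above and control peaks below the grey line of the gene span; dark outlined boxes carry a stop codon label. FZD3 and FZD6 are not drawn because introns spread their peaks over many kb, and FZD10 had no peak. The stop codon peaks of FZD4, FZD5 and FZD7 have the same interval in both lists, and FZD8 has peaks near its 5′ end only.

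FZD7 had the highest fold enrichment of the family in control cells. The receptor is known in mice for its part in stem cells of the gut. It carried 2 peaks on chromosome 2 (hg38, plus strand; ENSG00000155760) with the same intervals in both lists. The stop codon peak (202036187 to 202036986, 800 nt, labelled coding, stop codon and 3′ UTR) was listed in DF2 siRNA cells at 46.5-fold enrichment with score 89, and in control cells at 184-fold with score 616. It stood at percentile 83.8 of the DF2 siRNA list by fold enrichment and at percentile 99.7 of the control list, where 49 peaks were higher. The upstream peak (202034587 to 202035786, 1200 nt, labelled 5′ UTR and coding) was listed at 16.4-fold with score 44 in DF2 siRNA cells, and at 20.0-fold with score 134 in control cells. In both lists the stop codon peak was thus the higher of the pair. The listed values were further apart in control, but medians over all peaks were also higher there. These were 20.8 in control against 17.7 in DF2 siRNA for fold enrichment, and 143 against 74 for score.

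Ranks of unequal lists cannot be set against each other, but 4643 peaks had identical intervals in both lists, and 4 of these were Frizzled peaks. These 4 were 25% of the Frizzled peaks in DF2 siRNA (7.27 to 52.4%) and 21.1% in control (6.05 to 45.6%). The shares over all peaks, 35.1% in DF2 siRNA and 29.5% in control, lie within these intervals. Among the 4643, the FZD7 stop codon peak stood at percentile 77.3 by fold enrichment in DF2 siRNA and at percentile 99.5 in control, a difference of -22.2 points. A shift at least as far down was seen in 12.8% of the 4643 peaks. At percentile 99.5 in control, however, the peak had almost no room to rise, and peaks of low control percentile could not fall as far. The 12.8% thus describes peaks of all ranks and is not a background for a peak at the top. By score the same peak stood at percentile 42.7 in DF2 siRNA and 69.4 in control, a difference of -26.6 points, and 2.00% of the peaks shifted at least as far down. The upstream FZD7 peak hardly moved, with percentiles of 33.6 in DF2 siRNA and 34.1 in control by fold enrichment. The FZD5 stop codon peak stood at percentile 93.3 in DF2 siRNA and 92.1 in control. For the FZD4 stop codon peak the percentiles were 55.9 in DF2 siRNA and 81.3 in control, a difference of -25.4 points that 10.4% of the peaks reached or passed. Thus 2 of the 4 peaks stood lower in DF2 siRNA and the other 2 kept their place within 1.12 points by fold enrichment. Of the lower peaks, that of FZD4 overlaps peaks of the gene PRSS23 on the opposite strand, so its assignment to FZD4 is uncertain. These shifts rest on 1 list per condition and were not tested.

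**Figure D3:**
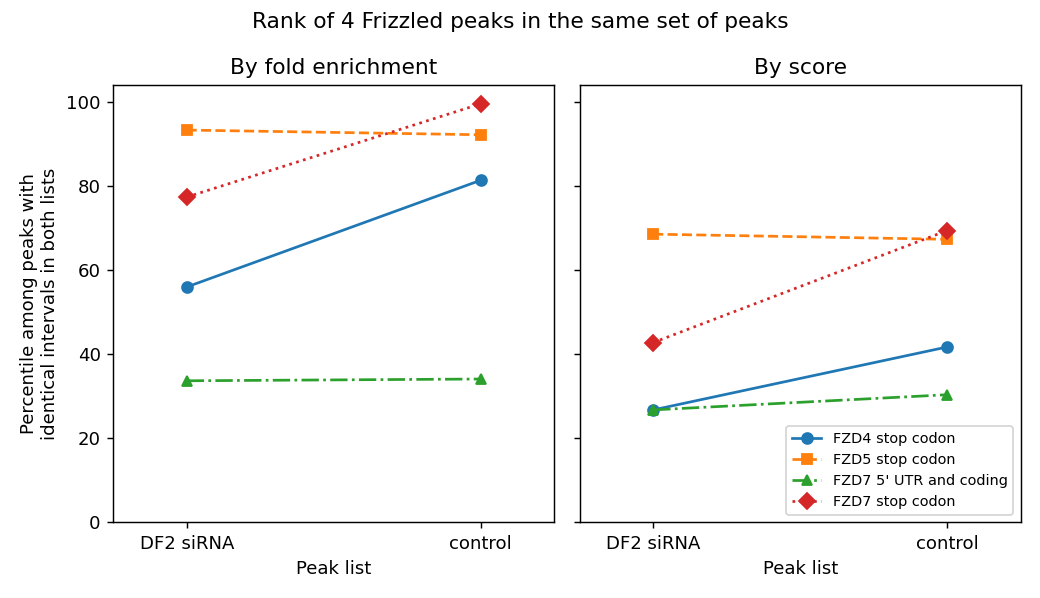
Percentile of 4 Frizzled peaks among the 4643 peaks with identical intervals in both lists, by fold enrichment (left panel) and by score (right panel), with DF2 siRNA at the left and control at the right of each panel. The lines of the FZD7 and FZD4 stop codon peaks rise toward control, and those of the FZD5 stop codon peak and of the upstream FZD7 peak are nearly level. The assignment of the FZD4 peak is uncertain, because peaks of the gene PRSS23 overlap it on the opposite strand.

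The genes whose best peaks were most like those of FZD7 were KIAA1549 (fold enrichment 47.4 in DF2 siRNA and 181 in control), the homeobox gene SIX4 (47.6 and 187, in the same order) and the zinc finger gene ZNF639 (47.1 and 178). Likeness was the distance in log2 fold enrichment of the best peak over the 2 lists, which came to 0.04, 0.04 and 0.06 for these genes.

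FZD1, a close relative of FZD7, was covered along its 5′ UTR, coding sequence and stop codon region in both conditions (chromosome 7, plus strand; ENSG00000157240). Its stop codon peak ran from 91266164 to 91267363 in DF2 siRNA, at 41.9-fold enrichment and score 85. In control it ran from 91265564 to 91267363, at 62.6-fold enrichment and score 312. The wider control peak also took in the stretch of a separate coding peak of the DF2 siRNA list (91265564 to 91265963, fold enrichment 14.6). The 5′ peak began at 91264364 in both lists, with a fold enrichment of 28.1 over 800 nt in DF2 siRNA and 34.1 over 1000 nt in control. A weak 3′ UTR peak was found in control only (91267564 to 91268163, fold enrichment 8.13, score 20, −log10 value 1.63), close to the control list's minimum −log10 value of 1.30.

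The start of the FZD1 5′ peak lies 69 nt upstream of the RefSeq gene start, so it covers sequence for which a reference was at hand. A RefSeq window (GRCh38.p14) from 250 bases before to 50 after the gene start was available for 5 of the 10 genes, and that of FZD1 is the one shown because a peak of both lists begins in it. The letters AGAC, a form of the m6A consensus, were searched on both strands in the 119 bases of the window that lie under the peak. They occurred 2 times on the gene's strand and 0 times on the other. The stretch with both, chr7:91264396-91264425, plus strand, is given with the matches in capitals.
FZD1 5′ end: tcctggtgaaAGACAGACtacggggcgcct
The first match begins 27 nt before the RefSeq start. Both matches lie upstream of that start, so by the RefSeq annotation they are outside the FZD1 transcript. The same 119 positions held AGAC on the gene's strand in 30.7% and on the other strand in 30.5% of 27305 RefSeq windows, so a match is common, and it does not show that this adenosine is methylated.

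FZD2, the third member of this group and a receptor for WNT5A, differed from FZD1 and FZD7 in having no dominant stop codon peak (chromosome 17, plus strand; ENSG00000180340). In DF2 siRNA cells its 5′ peak (44557459 to 44558458, labelled 5′ UTR and coding) had 21.4-fold enrichment and score 125, and a coding peak (44558659 to 44559058) had 16.8 and 95. In control cells the 5′ peak (44557659 to 44558258) had 15.5-fold enrichment and score 334, and the coding peak (44558459 to 44559058) had 16.4 and 275. A stop codon peak was found in control only (44559259 to 44559570, 312 nt, fold enrichment 16.0, score 164, −log10 value 3.44). The 3 control peaks were separated by 200 nt each, the width of 1 bin of the peak caller, and were within 1 unit of fold enrichment of each other. The control stop codon peak ended 1692 nt before the RefSeq end of the gene, with a last block of less than a full bin.

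FZD5 and FZD8 form a pair by sequence but had different peaks. FZD5, a receptor that Paneth cells of the mouse gut need to mature, had the highest fold enrichment of the family in DF2 siRNA cells and the second highest in control (chromosome 2, minus strand; ENSG00000163251). Its stop codon peak (207766694 to 207767893, 1200 nt) had 82.4-fold enrichment and score 248 in DF2 siRNA, and 92.3 and 571 in control. It stood at percentile 95.2 of the DF2 siRNA list and 94.1 of the control list. A coding peak of FZD5 was the only Frizzled peak of the DF2 siRNA list without a control counterpart (207768294 to 207768693, fold enrichment 11.1, score 29, −log10 value 2.24). In the control list the stop codon peak was numbered 1 and no FZD5 peak was numbered 0, and such gaps in numbering occurred in 23.0% of DF2 siRNA genes and 22.7% of control genes.

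FZD8 had the weakest scores of the family and no stop codon peak in either list (chromosome 10, minus strand; ENSG00000177283). In DF2 siRNA 1 peak covered its 5′ UTR and coding start (35640879 to 35642078, 1200 nt, fold enrichment 12.0, score 12). In control the same stretch held 2 peaks with 1 bin between them, a 5′ UTR peak (35641479 to 35642078) at 32.3-fold enrichment and score 35, and a coding peak (35640879 to 35641278) with 6.27 and 6. The joined peak and the separate ones had the same outer ends. The DF2 siRNA score of 12 stood at percentile 14.0 of its list, and the control score of 35 at percentile 25.5. By −log10 value the ranks were higher, at percentile 73.8 for the DF2 siRNA peak (9.48) and 93.0 for the control 5′ UTR peak (26.9). The control coding peak stood at percentile 33.2 by this value (3.40).

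FZD4, a receptor for norrin as well as Wnts and needed for the vessels of the retina, had a stop codon peak of 1800 nt at the same interval in both lists (chromosome 11, 86950662 to 86952461, minus strand; ENSG00000174804). Its fold enrichment was 27.3 and its score 44 in DF2 siRNA cells, and they were 63.8 and 218 in control cells. The assignment of this peak to FZD4 is uncertain, because peaks of the protease gene PRSS23 lie on the opposite strand of the same sequence. In DF2 siRNA, PRSS23 peaks with fold enrichments of 33.7 (score 72) and 12.2 (score 30) shared 676 and 370 nt with it. In control, a PRSS23 peak at 63.7-fold enrichment and score 203, close to the values of FZD4, shared 1246 nt. No source used here says whether the authors' counting used strand, so reads of the 2 genes cannot be told apart where their peaks overlap. The PRSS23 peak of highest score lay elsewhere on the chromosome (86800503 to 86809081). It had 69.8-fold enrichment and score 7755 in DF2 siRNA, and 75.5 and 13574 in control. PRSS23 was examined after these values were seen. A peak on the opposite strand was found for 2.25% of all DF2 siRNA peaks and 3.13% of all control peaks, and among Frizzled peaks for this one only in each list.

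A second FZD4 peak was found in control only, at the 3′ end of the gene (86945679 to 86946061, 383 nt, labelled 3′ UTR, fold enrichment 17.5, score 38, −log10 value 5.51). It ended at the last base of the RefSeq gene, which lies 4983 nt past the end of the stop codon peak, and no PRSS23 peak overlapped it.

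FZD9, a receptor known for its part in bone formation in mice, had a single peak in each list that reached the last base of its RefSeq gene (chromosome 7, plus strand; ENSG00000188763). In DF2 siRNA it began 805 nt from the gene start (73434583 to 73436120, 1538 nt), at 34.4-fold enrichment and score 114. In control it began 1405 nt from the gene start (73435183 to 73436120, 938 nt), with 50.1 and 367. The DF2 siRNA peak contained the control peak and covered 65.6% of the RefSeq gene span, against 40.0% in control. The DF2 siRNA share was the highest of any Frizzled gene. FZD10, its relative on chromosome 12, had no peak in either list. Absence from a list does not show absence of m6A, since an mRNA with few reads gives no peak.

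FZD3 and FZD6, the group split over several exons, were the only Frizzled genes with peaks across exon junctions. These were 3 of the 16 DF2 siRNA peaks and 4 of the 19 control peaks. The remaining 81.3% in DF2 siRNA (54.4 to 96.0%) and 78.9% in control (54.4 to 93.9%) were 1 contiguous stretch, against 58.0% of all DF2 siRNA peaks and 53.6% of all control peaks.

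FZD6, known in mice for the patterning of hair and in humans for nail growth, had the highest scores of the family in both conditions (chromosome 8, plus strand; ENSG00000164930). Its 3′ peak ran from 103329727 to 103331601 in DF2 siRNA, with 600 nt of exon, 25.1-fold enrichment and score 383. In control it ran from 103328289 to 103332001, with 1200 nt of exon, 40.7-fold enrichment and score 1567. The upstream peak began at 103318626 in both lists and had 22.0-fold enrichment and score 180 in DF2 siRNA, and 33.2 and 662 in control. By fold enrichment of the best peak FZD6 ranked only 6 of 9 in DF2 siRNA and 7 of 9 in control, so the orders by score and by enrichment differed within the family.

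FZD3, which guides growing axons in mice, had less of its control sequence covered in DF2 siRNA cells than any other Frizzled gene with a peak (chromosome 8, plus strand; ENSG00000104290). Its peaks covered 600 nt in DF2 siRNA and 1800 nt in control, and the 600 nt were 33.3% of the control bases. The median over all genes in both lists was 85.7%. The peak at the 3′ end of the coding sequence was a single bin in DF2 siRNA (28562882 to 28563081, fold enrichment 9.37, score 15), and 800 nt of exon in control (28555856 to 28563481, 46.7 and 183). The peak at the 5′ end had 21.2-fold enrichment and score 52 over 400 nt in DF2 siRNA, and 43.0 and 226 over 600 nt in control. A coding peak between them was found in control only (28527232 to 28527631, fold enrichment 9.83, score 67), and its −log10 value of 1.43 lay near the minimum of 1.30.

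The 4 control peaks without a DF2 siRNA counterpart thus belonged to FZD1, FZD2, FZD3 and FZD4, with fold enrichments from 8.13 to 17.5, all below the control list's median of 20.8. Their scores were 20, 164, 67 and 38, against a median of 143 over the control list. The DF2 siRNA peak without a counterpart, in FZD5, had a fold enrichment of 11.1, below the median of 17.7. The number of peaks per gene also turned on gaps of 1 bin. Such gaps made up 2 of the 7 gaps between neighbouring peaks of a gene in DF2 siRNA and 5 of 10 in control.

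Outside the receptors, 92 genes of the Wnt pathway were listed by role. A peak in either list was found in 53.3% of them, against 39.6% of all RefSeq protein-coding symbols and 90% of the Frizzled genes. These shares also depend on which genes the cells express, which was not analysed here. Of the 92 genes, 40 had a peak in both lists, 4 in DF2 siRNA only, 5 in control only and 43 in neither. Among all 10506 gene names with a peak in either list, 75.2% were in both, 5.76% in DF2 siRNA only and 19% in control only. Whether the pathway genes differ from these shares was not tested. In the 40, the median fold enrichment of the best peak was 39.1 in DF2 siRNA and 42.8 in control, against 25.1 and 37.4 for all genes in both lists. Below, paired values are the fold enrichment of the best peak in DF2 siRNA and then in control, and these can lie at different sites. Within a role, genes in both lists were ranked by the sum of the within-list percentiles of these values, and the first 3 are named, so a gene not named can be higher in 1 of the lists.

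**Figure D4:**
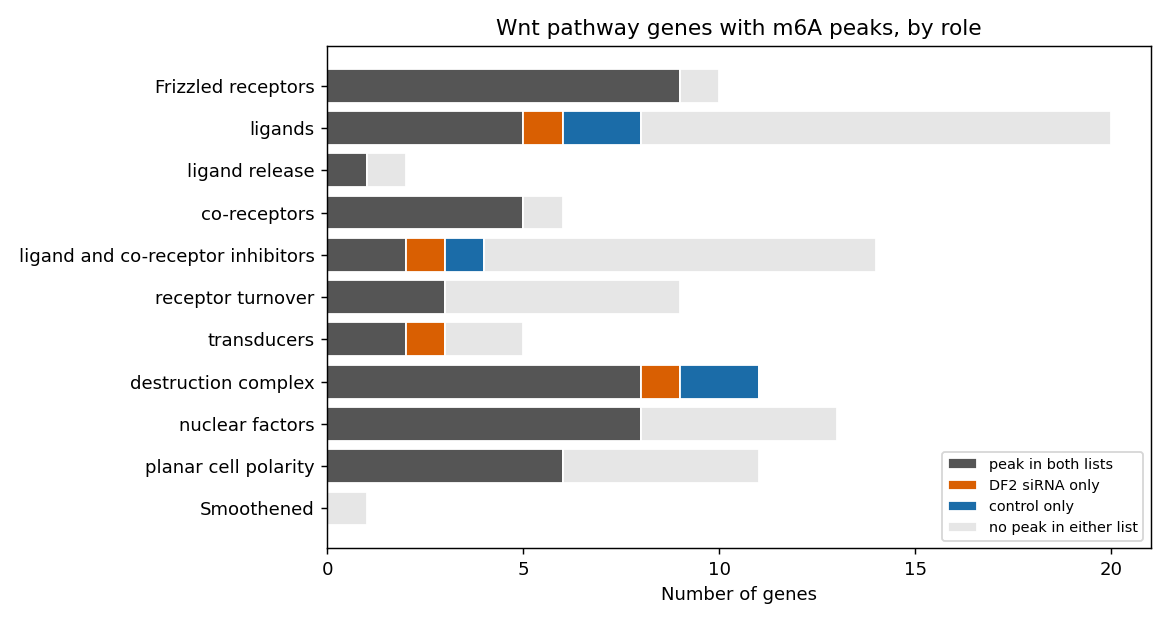
Number of Wnt pathway genes by role with a peak in both lists, in DF2 siRNA only, in control only or in neither. Of the Frizzled receptors 9 of 10 had a peak in both lists. All 11 genes listed under the beta-catenin destruction complex, which include proteins that act on or with it, had a peak in at least 1 list.

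On the ligand side, both lists held a peak of 5 of 20 genes, and WNT6 (120 in DF2 siRNA and 81.2 in control), WNT7B (105 and 66.2) and WNT5A (36.4 and 50.8) ranked highest over both. WNT10B had a peak in DF2 siRNA only (10.1, score 50), and WNT11 (45.2, score 61) and WNT2B (10.7, score 21) in control only. WLS, the carrier that brings Wnt proteins to the cell surface, was listed at 18.9 in DF2 siRNA and 22.3 in control. Of 14 inhibitors, 2 had a peak in both lists, KREMEN1 (57.1 and 51.7) and KREMEN2 (48.8 and 36.1), which are membrane receptors of the secreted Dickkopf inhibitors. DKK1, a secreted inhibitor that binds LRP6, had 2 peaks in control only (best 21.9, score 555), and NOTUM, an enzyme that inactivates Wnts, had 1 peak in DF2 siRNA only (9.37, score 15).

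Among the proteins that work with Frizzleds at the membrane, 5 of 6 co-receptor genes had a peak in both lists. ROR2, a receptor of WNT5A, was listed at 175 in DF2 siRNA and 239 in control, ROR1 at 49.2 and 116, and LRP6 at 51.0 and 81.7. Of 9 genes that set the amount of Frizzled protein at the cell surface, 3 had a peak in both lists. ZNRF3, which with RNF43 ubiquitinates Frizzleds and sends them to lysosomes, was listed at 166 in DF2 siRNA and 132 in control, and RNF43 at 86.4 and 115. LGR4, a receptor of the R-spondins that hold both ligases in check, was listed at 52.2 and 92.9. The other 6, LGR5, LGR6 and the R-spondin genes, had no peak. Smoothened (SMO), the Hedgehog pathway's relative of the Frizzleds, had no peak in either list.

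Downstream of the receptors, CTNNB1, the gene of beta-catenin, was listed at 26.7 in DF2 siRNA and 32.8 in control, with scores of 1707 and 3469. Of the Dishevelled genes, DVL1 had peaks in both lists (28.8 and 10.2), DVL3 in DF2 siRNA only (22.2, score 115) and DVL2 in neither. Of 11 genes of the destruction complex and of proteins that act on or with it, 8 had a peak in both lists. Among these AXIN1 (70.0 and 69.0), APC2 (32.9 and 51.8) and AMER1 (33.3 and 44.4) ranked highest over both lists. GSK3A had a peak in DF2 siRNA only (14.6, score 48), and AXIN2 (14.6, score 19) and TNKS (10.3, score 91) in control only. Both lists held a peak of 8 of 13 nuclear factors, and the beta-catenin cofactors BCL9L (159 and 92.0), BCL9 (57.5 and 71.5) and PYGO2 (47.0 and 41.2) ranked highest over both. Of 11 planar cell polarity genes 6 had one in both, and the cadherins CELSR2 (130 and 109) and CELSR1 (97.6 and 110) and VANGL1 (57.0 and 108) ranked highest.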

How the data were processed

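The submitters' processing notes name HISAT2 and hg38. The sources used here do not give versions, the peak caller, its settings or the annotation. Per condition, 1 peak list was deposited. Per the file headers, the values of a peak are a fold enrichment (a ratio), a score, and a −log10 value, of the FDR for DF2 siRNA peaks and of the p-value for control peaks, so a limit on it differs between the lists. Peaks are blocks of mostly 200 nt. On the minus strand the deposited block sizes run in transcript order, which misplaced blocks in 48.6% of DF2 siRNA and 55.4% of control minus-strand peaks; they were reversed here. Overlap was at least 1 shared exonic base on the same strand. Genes were matched by the Gene column, and the percentile is a peak's midrank in its list. Coordinates count from 1, and gene spans are those of RefSeq GRCh38.p14. Scripts ran on scipy 1.17.1, numpy 2.4.6, pandas 2.3.3 and Python 3.11.15, and the overlap code was tested on simulated data.

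The members and the pathway list were chosen with earlier results of these data known. Named were all Frizzled genes, the 3 genes nearest to the strongest, pathway genes in 1 list only, and up to 3 per role in both lists. Alternatives were stricter limits, equal lengths, other overlaps, merging within 200 nt and 2 peaks per gene. Values per library were not analysed here.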

Additional observations from a re-analysis of the deposited data

How the results depend on the processing

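The overlap of Frizzled peaks between the lists kept within its interval under each alternative run, from 81.3 to 93.8% in DF2 siRNA and from 68.4 to 82.4% in control, the lowest with an overlap of 50% of both peaks. It did not change with the deposited order of block sizes, an alternative chosen after seeing the data. With peaks at or above their list's median fold enrichment, Frizzled peaks numbered 10 in DF2 siRNA and 11 in control, 1 gene (FZD2) was in DF2 siRNA only and 1 (FZD8) in control only, and 2 other pathway genes were in DF2 siRNA only. With p or FDR 100 times smaller, 2 pathway genes were in DF2 siRNA only. With 2 peaks or more per gene, 5 Frizzled genes were in both lists, 1 (FZD5) in DF2 siRNA only and 2 (FZD4 and FZD8) in control only, and pathway genes numbered 23 in DF2 siRNA, 25 in control and 20 in both. These changes follow from peaks or genes dropped by each limit. Merging peaks within 200 nt gave 14 Frizzled peaks in each list. The other 50 of 62 values stayed within their interval or within 1.5 times. Of 80 peak numbers of single Frizzled genes, 18 moved further.

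No paired analysis was possible because each list pools both immunoprecipitates of its condition, and leaving out each library was not run for the same reason. Depth is unknown. Frizzled peak sequences were not analysed here beyond the 5′ end of FZD1.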
